A study of Erophylla sezekorni and Pteronotus quadridens with 48 samples.

Results

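Ribosomal proteins are the structural proteins of the ribosome, which builds every protein of the cell. In the cytosol the large subunit forms the peptide bonds and the small subunit reads the messenger RNA. Most mammalian ribosomal proteins are encoded by 1 gene with introns, and mammalian genomes also carry many processed copies of these genes, made when messenger RNA is copied back into DNA and inserted elsewhere. Such copies lack introns, and most have gathered substitutions and shifts of the reading frame. The transcripts described here are those of 2 bat species whose closest SwissProt protein was a cytosolic ribosomal protein of human, mouse, rat, cattle or pig, with an E-value, the number of equally good matches expected by chance, of 1e-20 or lower. The members were chosen by the entry name, RL for the large and RS for the small subunit followed by a number, with the stalk proteins RLA0, RLA1 and RLA2 and the small-subunit protein RSSA added.

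RNA was taken from embryos collected in the field of *Erophylla sezekorni*, the buffy flower bat, and *Pteronotus quadridens*, the sooty mustached bat. The 48 libraries came from 4 tissues, the forelimb, the heart, the plagiopatagium (the wing membrane along the flank) and the uropatagium (the tail membrane), and were sampled at St 14 and at St 16, so that each species, tissue and stage had 3 libraries. The annotation holds 1 assembly per species, so the values below describe 2 assemblies with no replicates, and stages and tissues are not set apart. The libraries were prepared with a kit that keeps the strand of the RNA, but the sources used here do not say whether the assembly used the strand.

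In *Erophylla*, 713 of 1064426 transcripts were members, and they fell into 460 of 781237 assembled genes under 80 protein names. In *Pteronotus*, 688 of 1156187 transcripts fell into 413 of 857239 assembled genes under 74 names. An assembled gene is the group of transcripts that share the gene part of their identifier, and it need not be a gene of the genome. No assembled gene carried more than 1 of the names, and 14 and 6 genes also held a transcript matched to a protein outside the list. The limit on the E-value fell within a continuous range of matches. The last *Erophylla* transcript inside it was an RL12 match at 9.87e-21, with 66.7% identity over 62 residues, and the first outside was an RL10A match at 1.02e-20, with 80.3% identity over 71 residues. In *Pteronotus* an RL6 match at 9.26e-21 lay just inside and an RL23A match at 1.1e-20 just outside.

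The list of names covered most of the ribosome. Of 80 standard names, 72 had a member in *Erophylla*, 44 of 47 in the large subunit and 28 of 33 in the small. In *Pteronotus* 67 of 80 had a member, 40 of 47 and 27 of 33. In *Erophylla* RL37A, RL40, RL41, RS4X, RS24, RS25, RS30 and RACK1 had none. RACK1, a scaffold of signalling proteins on the small subunit, has a name outside the rule, and 4 assembled genes matched it in *Erophylla* and 2 in *Pteronotus*, none in reverse. RS30 is made as a fusion with a ubiquitin-like protein. UBIM, an entry name looked up for this fusion, was matched in 4 and 1 assembled genes. Whether these genes hold the RS30 part was not tested. For 5 of the 8 names an assembled gene matched an entry of a species outside the 5 at the same limit, with 15 genes for RS24, 14 for RL40, 5 for RS25, 3 for RS4X and 2 for RL37A. RL40, the large-subunit protein made as a fusion with ubiquitin, was reported under the sheep entry in both species, at up to 100% identity.

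In *Pteronotus* the names without a member were RL10, RL29, RL35A, RL36, RL38, RL40, RL41, RS4X, RS25, RS27, RS28, RS30 and RACK1. Entries of other species were matched by 13 assembled genes for RL35A, 11 for RL29, 11 for RL40, 6 for RL36, 5 for RS25 and 3 each for RL10 and RS4X. The lowest E-values in *Pteronotus* were 2.35e-20 for RL38, 6.76e-18 for RS27, 1.22e-18 for RS28 and 2.85e-20 for RS30, all past the limit. RL41, the shortest protein of the ribosome, was not matched by any transcript of either assembly. With entries of any species, and with RACK1 counted, 78 names in *Erophylla* and 75 in *Pteronotus* were matched.

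The number of assembled genes per name was uneven in both species. The median was 4 in each, 14 names had a single assembled gene in *Erophylla* and 14 in *Pteronotus*, and 13 and 12 names had at least 10. The 10 names with the most genes held 167 of the 460 genes in *Erophylla* (36.3%) and 178 of the 413 in *Pteronotus* (43.1%). For comparison, among other proteins of up to 300 residues that are not encoded by mobile elements the median was 1 gene per name in both species, and 4 of 3989 names in *Erophylla* and 1 of 4090 in *Pteronotus* had at least 10. The median was 5 in both species for 7 other abundant proteins described below. It was 3.5 and 2 for elongation factors, 2 in both species for ribosome assembly factors, and 1 and 1.5 for mitochondrial ribosomal proteins.

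RL17, a protein at the mouth of the exit tunnel of the large subunit, led in both species with 37 assembled genes in *Erophylla* and 44 in *Pteronotus*. RL12, which lies at the base of the stalk that binds elongation factors, had 22 and 18, and RL23A, which lies beside the tunnel exit, had 16 and 21. The small-subunit proteins RS6, a target of S6 kinase, and RS8 followed with 15 and 17 and with 14 and 18. RL21 had 14 and 12, RL15 had 14 and 11, RSSA, which is also known as the laminin receptor, had 11 and 12, RL7A had 9 and 13, and RL9 had 11 and 11. These 10 names had the highest sums over both assemblies among entries of the 5 species. The order differed with entries of any species, where RSSA had 25 and 27 genes and RS3A, outside the 10, had 27 and 19, against 16 and 21 for RL23A and 16 and 20 for RS8. Over the 72 names found in both species, the numbers of genes per name had a Pearson r of 0.915 and a Spearman rho of 0.732, and r was 0.850 without RL17. The same names had an r of 0.908 and a rho of 0.862 with entries of any species. These coefficients are across names that share an assembly and are a description only.

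**Figure D1:**
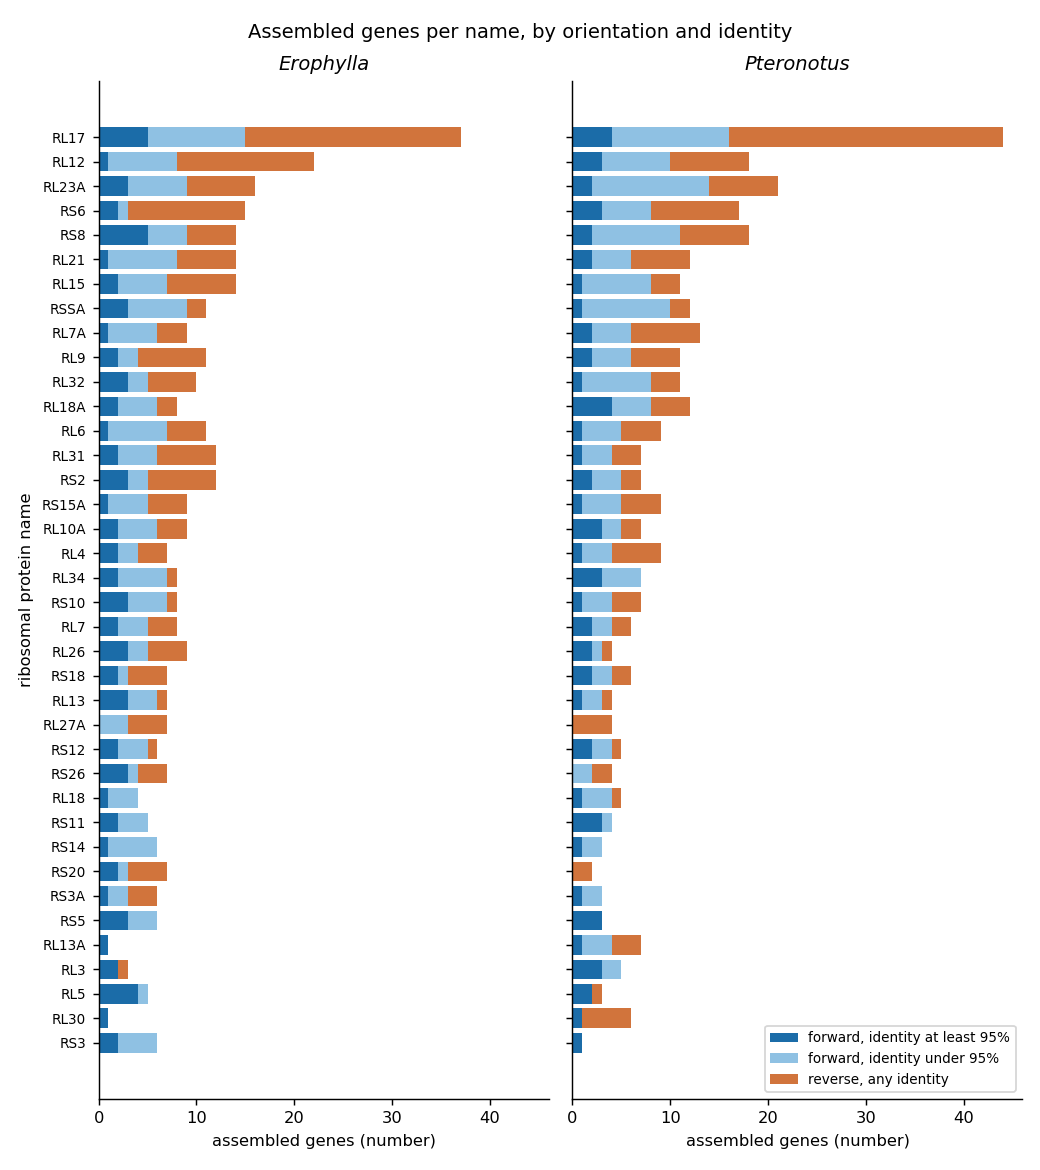
Number of assembled genes for each name with at least 5 in 1 of the species, with *Erophylla* on the left and *Pteronotus* on the right. Bars are split into forward genes with at least 95% identity, forward genes under 95% identity and reverse genes, and RL17 has the longest bar in both, at 37 and 44 genes.

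Some names differed between the assemblies in the number of best matches to the 5 species. RS3, a protein at the entry of the messenger RNA channel, had 6 assembled genes in *Erophylla* and 1 in *Pteronotus*, and RS20 had 7 and 2. RL26 had 9 and 4, RS14 6 and 3, and RS3A 6 and 3. In the other direction RL13A, which is also known as a translational silencer in the interferon response, had 1 gene in *Erophylla* and 7 in *Pteronotus*. RL30 had 1 and 6, RL3, which reaches toward the peptidyl transferase centre, 3 and 5, RL18A 8 and 12, and RL7A 9 and 13. Among names found in both, 40 had more genes in *Erophylla*, 21 had more in *Pteronotus* and 11 had equal numbers. Several of these differences depend on which species gave the best entry. With entries of any species RL3 had 6 genes in *Erophylla* and 5 in *Pteronotus*, which turns the direction, RL30 had 7 and 11, RS3 8 and 4, RS20 9 and 5 and RS3A 27 and 19, while RL13A had 2 and 10, RL26 9 and 5 and RS14 8 and 3. With 1 assembly per species no difference has a replicate check.

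RL31 had 12 assembled genes in *Erophylla* and 7 in *Pteronotus*, but 14 and 15 with entries of any species, and RL34 had 8 and 7 either way. Of the stalk proteins, which recruit translation factors to the ribosome, RLA0 had 4 and 1, RLA1 4 and 3, and RLA2 2 and 2. RS27A, the small-subunit protein made as a fusion with ubiquitin, had 2 and 3. Exactly 1 assembled gene was found in both species for RL36L, RL39, RL7L and RS19. RL39, a very short protein of the exit tunnel, was matched at 100% identity in both, over 100% of the residues in *Erophylla* and 98% in *Pteronotus*. RS19, the protein most often mutated in Diamond-Blackfan anaemia, was matched at 87.8% and 93.2%, but at 100% in both under an entry of another species, and with entries of any species it had 4 genes in *Erophylla* and 1 in *Pteronotus*.

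Entries for paralogues were also found. RL3L, a paralogue of RL3 that is known from heart and skeletal muscle, had 2 assembled genes in each species, with identities of 97.8% and 98.6% in *Erophylla* and 97.1% and 99.5% in *Pteronotus*. RL10L, known from the testis in adults, had 1 and 2 genes, RL26L 1 and 3, and RS27L, a paralogue of RS27 induced by p53, 3 and 2. RL22L had 2 genes in *Erophylla* and none in *Pteronotus*, where its best match had an E-value of 2.9e-20, just past the limit. The single RL7L gene of *Erophylla* held 14 member transcripts, the highest number of any gene there, and matched at 87.1% identity, and the *Pteronotus* gene matched at 87.6%. RS4, the name of the cattle entry for the protein named RS4X in some other mammals, had 2 assembled genes in each species. With entries of any species, which include RS4 of hamster, it had 7 and 8. RS4 was counted apart from the standard name RS4X, which is listed above as without a member.

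The identity of the best match had 2 peaks. Identity here is that of the leading aligned stretch between the translated transcript and the SwissProt protein. In *Erophylla* 136 of the 460 assembled genes (29.6%, 95% Wilson interval 25.6% to 33.9%) had at least 95% identity, and in *Pteronotus* 102 of 413 (24.7%, 20.8% to 29.1%). These shares were near those of other proteins of up to 300 residues, at 28.5% and 28.7%. Over all other genes matched under the same limit and species they were 23.4% and 23.6%. The remaining ribosomal protein genes centred near 70%, with medians of 71.5% and 71.4%, and few lay from 85% to 90%, 24 in *Erophylla* and 19 in *Pteronotus*. Over all members the median was 78.7% in *Erophylla* and 75.6% in *Pteronotus*, against 88.9% and 88.8% in other proteins of up to 300 residues, whose numbers rose steadily toward 100%. The lowest identity was 34.1% in *Erophylla*, for RS3A, and 38.3% in *Pteronotus*, for RL13.

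Orientation differed with identity. A match is called reverse when the protein is read from the strand opposite to the assembled transcript. Of the ribosomal protein genes, 169 of 460 in *Erophylla* (36.7%, 32.5% to 41.2%) and 153 of 413 in *Pteronotus* (37.0%, 32.5% to 41.8%) were reverse. None of the 136 *Erophylla* genes with at least 95% identity was reverse, with a Wilson interval of 0% to 2.75%, and 2 of 102 were in *Pteronotus* (1.96%, 0.539% to 6.87%). The 2 exceptions matched RL7A over 48 residues at 100% and RS8 over 76 residues at 96.1%. Under 95% identity, 169 of 324 genes were reverse in *Erophylla* (52.2%, 46.7% to 57.5%) and 151 of 311 in *Pteronotus* (48.6%, 43.0% to 54.1%). These shares were not even over the range. From 85% to 95% identity, 14 of 58 genes were reverse in *Erophylla* (24.1%, 15% to 36.5%) and 5 of 39 in *Pteronotus* (12.8%, 5.603% to 26.7%), and under 85%, a limit chosen after seeing the data, 155 of 266 (58.3%, 52.3% to 64.0%) and 146 of 272 (53.7%, 47.7% to 59.5%).

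**Figure D2:**
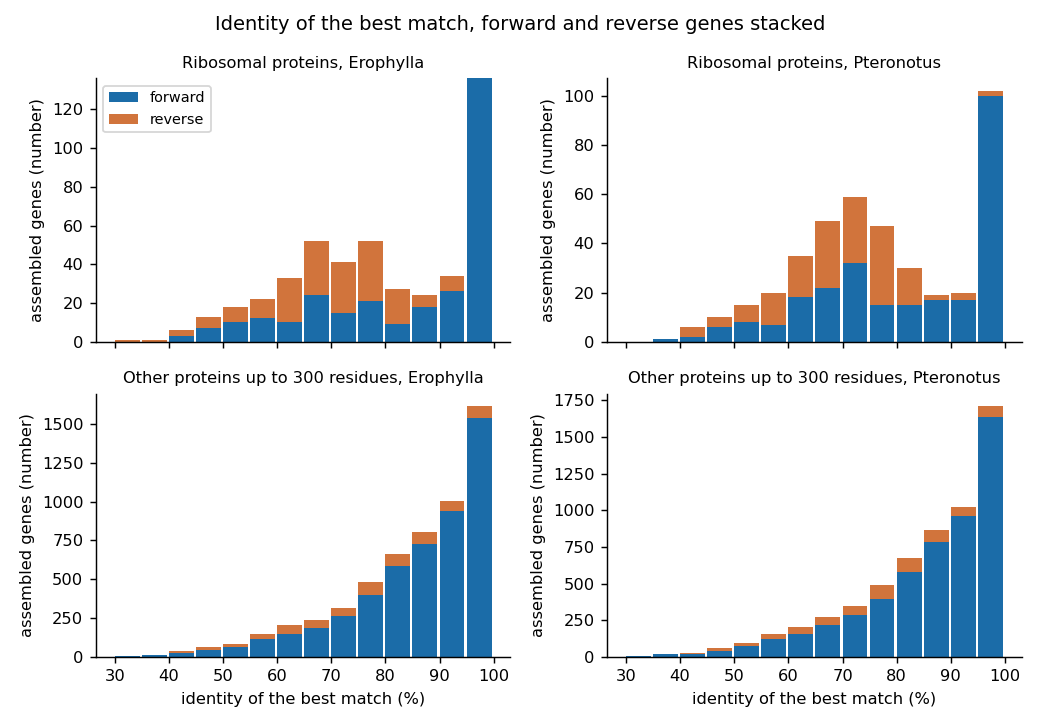
Number of assembled genes by identity of the best match in bins of 5 percentage points, with forward genes in blue and reverse genes stacked in orange. The upper panels show ribosomal proteins, where the bin from 95% to 100% holds 136 forward and 0 reverse genes in *Erophylla* and 100 and 2 in *Pteronotus*, and the lower panels show other proteins of up to 300 residues.

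Reverse matches were less frequent over all other genes matched under the same limit and species, at 16.1% in *Erophylla* and 15.6% in *Pteronotus*. Among other proteins of up to 300 residues without mobile elements, 620 of 5664 genes were reverse in *Erophylla* (10.9%, 10.2% to 11.8%) and 656 of 5955 in *Pteronotus* (11%, 10.2% to 11.8%). Under 95% identity the shares were 13.4% and 13.7%. At 95% or more they were 4.76% (3.83% to 5.91%) and 4.44% (3.56% to 5.52%), beside 0% and 1.96% of the ribosomal protein genes. The shares of these proteins also differed with identity. Under 85% they were 404 of 2240 genes in *Erophylla* (18.0%, 16.5% to 19.7%) and 438 of 2353 in *Pteronotus* (18.6%, 17.1% to 20.2%), beside 58.3% and 53.7% of the ribosomal protein genes, and from 85% to 95% they were 7.69% (6.55% to 9.01%) and 7.51% (6.41% to 8.79%), beside 24.1% and 12.8%. The proteins of the mitochondrial ribosome, of similar function and size, were reverse in 8 of 127 genes in *Erophylla* (6.30%, 3.23% to 11.9%) and 13 of 131 in *Pteronotus* (9.92%, 5.89% to 16.2%). Other abundant proteins were reverse in 35.0% (22.1% to 50.5%) and 28.6% (17.2% to 43.6%), and ribosome assembly factors in 29.2% (14.9% to 49.2%) and 29.6% (15.9% to 48.5%). These intervals overlapped those of all ribosomal protein genes. Elongation factors were reverse in 12% and 0%. Genes matched to mobile elements were reverse in 47.9% and 48.2%, a share whose intervals, 46.3% to 49.4% and 46.7% to 49.6%, overlapped those of ribosomal protein genes under 95% identity. The overlap depends on that limit, as the mobile elements had median identities of 54.5% and 54.2%. With ribosomal protein genes under 85% identity, the intervals overlapped in *Pteronotus* (47.7% to 59.5%) but not in *Erophylla* (52.3% to 64.0%).

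The intervals cover counting error only, and 152 of the 460 *Erophylla* genes and 121 of the 413 *Pteronotus* genes shared an assembly component, a group of transcripts joined by common sequence, with another member. With an E-value limit of 1e-50, which keeps mainly long and close matches, 16.1% of 112 genes were reverse in *Erophylla* and 24.7% of 89 in *Pteronotus*.

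The genes near identity were spread over nearly all names. In *Erophylla* 72 of 80 names had a forward gene with at least 95% identity and in *Pteronotus* 64 of 74, and no name had more than 5 and 4 of them. A single one was found for 30 and 39 names. Where a name had several, some matched different stretches of the protein. Of 94 pairs within a name in *Erophylla*, 23 shared at most 10 residues (24.5%), and of 49 pairs in *Pteronotus* 19 did (38.8%). Whether such genes belong to 1 transcript was not tested. Joined over all transcripts of a name, forward matches with at least 95% identity covered at least 90% of the residues for 32 of 80 standard names in *Erophylla* and 23 in *Pteronotus*, and 14 were covered so in both, among them RL13, RL13A, RL17, RL23, RS5, RS7, RS8 and RS16. With entries of any species the numbers were 46 and 33. Standard names with members but without such a match to the 5 species were RL22, RL27, RL27A, RL29, RL36 and RS19 in *Erophylla* and RL27, RL27A, RL37, RL37A, RS19, RS20, RS24 and RS26 in *Pteronotus*, and the paralogue entries RL7L and RL36L had no such gene in either. All of the standard names listed had one with entries of any species, except RL29 in *Erophylla* and RL37A and RS26 in *Pteronotus*.

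RL17 had 5 forward genes with at least 95% identity in *Erophylla*, 10 forward genes under it and 22 reverse genes, and 4, 12 and 28 in *Pteronotus*. RL12 had 1, 7 and 14 in *Erophylla* and 3, 7 and 8 in *Pteronotus*. RS6 had 2, 1 and 12 and then 3, 5 and 9. RSSA had fewer reverse than forward genes, with 2 reverse genes beside 6 forward genes under 95% in *Erophylla* and 2 beside 9 in *Pteronotus*. Across names, the number of reverse genes had a Spearman rho of 0.599 in *Erophylla* (n = 80) and 0.542 in *Pteronotus* (n = 74) with the number of forward genes under 95%, and of 0.140 and 0.180 with the number of forward genes at 95% or more. The names of 1 assembly share their libraries, and these values are a description.

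Genes of both orientations were found side by side. In *Erophylla* 26 of 59 components with more than 1 member gene held both orientations, and in *Pteronotus* 21 of 48. A component with 7 RL17 genes in *Erophylla*, the most of any, held 5 reverse genes and 1 gene with at least 95% identity. Among the 103 *Erophylla* genes and 118 *Pteronotus* genes with more than 1 member transcript, none had transcripts whose leading stretches lay in both orientations, and 2 *Erophylla* transcripts had stretches in both.

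A predicted coding region on the transcript with the lowest E-value was found in 135 of 460 ribosomal protein genes in *Erophylla* (29.3%, 25.4% to 33.7%) and 116 of 413 in *Pteronotus* (28.1%, 24% to 32.6%). In other proteins of up to 300 residues the shares were 69.8% (68.6% to 71.0%) and 69.9% (68.7% to 71.1%), and in mitochondrial ribosomal proteins 70.1% (61.6% to 77.4%) and 60.3% (51.7% to 68.3%). With an E-value limit of 1e-50 the ribosomal protein shares were 74.1% of 112 genes and 66.3% of 89 genes. A coding region on the strand of the match, over it and with the same best name was found in 104 (22.6%) and 89 (21.5%) of the ribosomal protein genes.

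Both the length of the match and its identity went with the coding region. The sources used here do not give the shortest coding region that the prediction allowed, and its bearing on short matches was not tested. Among forward genes with at least 95% identity whose match covered at least 100 residues, 56 of 61 in *Erophylla* (91.8%, 82.2% to 96.4%) and 39 of 40 in *Pteronotus* (97.5%, 87.1% to 99.6%) had a coding region of the same name, close to the 88.6% and 86.7% in other proteins of up to 300 residues with matches of that length. With matches under 100 residues only 6 of 75 (8.0%) and 5 of 60 (8.33%) did, against 15.9% and 19.7% of the other proteins with matches that short. Under 95% identity, matches of at least 100 residues had such a coding region in 17 of 76 forward genes (22.4%, 14.5% to 32.9%) and 17 of 78 reverse genes (21.8%, 14.1% to 32.2%) in *Erophylla*, and in 14 of 67 (20.9%, 12.9% to 32.1%) and 21 of 90 (23.3%, 15.8% to 33.1%) in *Pteronotus*. Other proteins with identities under 95% and matches of that length had one in 85.9% and 83.7%, over both orientations. At any length and identity, reverse genes had one in 23.4% and 24.5% of other proteins of up to 300 residues. Reverse ribosomal protein genes had one in 13.0% and 16.3%. Among forward genes the shares were 70.7% and 70.2% for these other proteins and 28.2% and 24.6% for ribosomal proteins. The median identity of other proteins under 95%, at matches of any length, was higher than that of the ribosomal protein genes, at 83.6% and 83.5%.

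**Figure D3:**
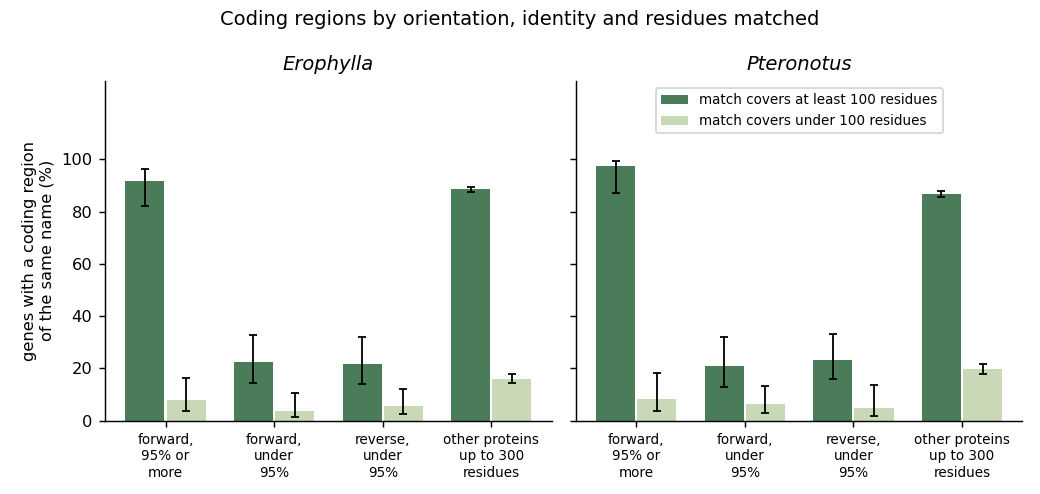
Share of assembled genes with a coding region of the same name, by orientation and identity of the match, with bars for matches of at least 100 and under 100 residues and 95% Wilson intervals. Forward ribosomal protein genes with at least 95% identity reach 91.8% and 97.5% with the longer matches, and those under 95% lie between 20.9% and 23.3% in both orientations and species.

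Matches in more than 1 reading frame were frequent under 95% identity. Such a match, on 1 strand, was found in 1 of 136 forward genes with at least 95% identity in *Erophylla* (0.735%, 0.130% to 4.05%) and in 2 of 100 in *Pteronotus* (2.0%, 0.550% to 7.0%). Under 95%, it was found in 50 of 155 forward genes (32.3%, 25.4% to 40%) and 57 of 169 reverse genes (33.7%, 27.0% to 41.1%) in *Erophylla*, and in 49 of 160 (30.6%, 24% to 38.2%) and 59 of 151 (39.1%, 31.7% to 47.0%) in *Pteronotus*. In other proteins of up to 300 residues with identities under 95% the shares were 7.96% and 7.42%, over both orientations. Mobile elements had 41.5% and 42.5%, and these lists were not matched for identity within that range. At any identity, reverse genes had 24.7% and 20.7% in other proteins of up to 300 residues and 33.7% and 38.6% in ribosomal proteins. Forward genes had 4.30% and 4.45%, and 17.5% and 19.6%. Over all genes, cytosolic ribosomal proteins had 23.5% and 26.6%. Other abundant proteins had 22.5% and 21.4%, and ribosome assembly factors 25% and 22.2%. Elongation factors had 12% and 20%, and mitochondrial ribosomal proteins 7.09% and 9.92%. A retained intron between stretches can also change the frame, and it was not tested for.

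Few matches reached the whole protein. In *Erophylla* 84 of 460 genes (18.3%, 15% to 22.0%) and in *Pteronotus* 58 of 413 (14.0%, 11% to 17.7%) covered at least 90% of the residues, against 44.1% and 42.6% of other proteins of up to 300 residues. Among reverse genes the shares were 16.6% and 15.7% for ribosomal proteins and 13.2% and 14.3% for these other proteins. Among forward genes they were 19.2% and 13.1% for ribosomal proteins and 47.9% and 46.1% for the others. Over both orientations, the share was 15% and 14.3% for other abundant proteins and 16.7% and 14.8% for ribosome assembly factors. It was 4% and 13.3% for elongation factors, and 45.7% and 39.7% for mitochondrial ribosomal proteins. Over all other genes matched under the same limit and species it was 25.5% and 23.0%. The length of a protein was taken as the highest residue that any match reached, which can fall short of the true length. Forward genes with at least 95% identity covered the whole protein in 24.3% and 14.0%, and the reverse genes under 95% in 16.6% and 15.9%, with overlapping intervals. The ends of the protein were covered less often than its middle in all classes. Near 52.5% of the length, 68.4% of the forward genes with at least 95% identity, 75.5% of the forward genes under it and 79.9% of the reverse genes under it covered the position in *Erophylla*, and 73.0%, 71.2% and 84.8% in *Pteronotus*. The first 5 residues were reached by 46.3%, 29.7% and 35.5% in *Erophylla* and 47.0%, 39.4% and 36.4% in *Pteronotus*, and the last 5 by 47.8%, 31.0% and 36.1% and by 38%, 22.5% and 33.1%.

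**Figure D4:**
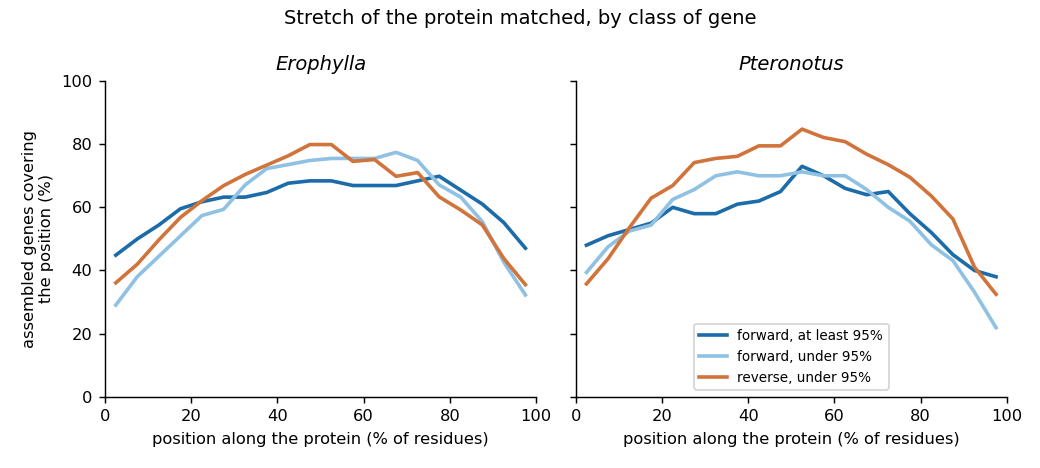
Share of assembled genes whose match covers each position along the ribosomal protein, in percent of its residues, for forward genes with at least 95% identity, forward genes under 95% and reverse genes under 95%. All lines are lower at both ends than in the middle, and at the start the forward genes with at least 95% identity lie highest in both species.

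In *Erophylla* 296 genes belonged to 50 large-subunit names and 164 to 30 small-subunit names, and in *Pteronotus* 285 to 45 and 128 to 29. The median number of genes per name was 4 and 4.5 in *Erophylla* and 4 and 3 in *Pteronotus*. Reverse genes made up 39.5% (34.1% to 45.2%) and 31.7% (25.1% to 39.2%) in *Erophylla* and 39.6% (34.1% to 45.4%) and 31.2% (23.9% to 39.7%) in *Pteronotus*. At least 95% identity was reached by 26.4% (21.7% to 31.6%) and 35.4% (28.5% to 42.9%) in *Erophylla* and 22.5% (18.0% to 27.6%) and 29.7% (22.5% to 38.1%) in *Pteronotus*, and at least 90% of the residues were covered in 15.2% (11.6% to 19.7%) and 23.8% (17.9% to 30.8%) and in 12.3% (8.96% to 16.6%) and 18.0% (12.3% to 25.5%). The median identity was 77.8% and 81.6% in *Erophylla* and 75.2% and 78.5% in *Pteronotus*.

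The closest proteins in the NCBI nr collection were also given for each transcript. Of the forward genes with at least 95% identity, 79.4% in *Erophylla* and 78.0% in *Pteronotus* had a match titled plainly as a ribosomal protein. Among forward genes under 95% the shares were 50.3% and 49.4%, and among reverse genes under 95% 43.2% and 42.4%. Titles with "like" or "putative" were carried by 11.8% and 11% of the first class, by 25.8% and 25.6% of the second and by 29.0% and 31.1% of the third. The single nr match given for genes under 95% had a median identity of 71.1% and 68.9% for forward genes and 67.2% and 66.2% for reverse genes. Its identity was above that of the SwissProt match in 81 of 155 and 75 of 160 forward genes and in 83 of 169 and 71 of 151 reverse genes. At least 95% was reached by 10 of 155 and 1 of 160 forward genes, and by 0 of 169 and 0 of 151 reverse genes. The nr match was a bat protein for 34 of 460 genes in *Erophylla* (7.39%, 5.34% to 10.2%) and 51 of 413 in *Pteronotus* (12.3%, 9.52% to 15.9%), while it was for 41.9% and 42.1% of other proteins of up to 300 residues and 47.2% and 50.4% of mitochondrial ribosomal proteins. The share was also low for elongation factors, at 4.0% and 6.67%, and mobile elements, at 6.47% and 5.73%. It was 22.5% and 14.3% for other abundant proteins and 45.8% and 25.9% for ribosome assembly factors. Other proteins of up to 300 residues with at least 95% identity had 26.0% and 25.3%. For the cytosolic ribosomal protein genes, primates led with 86 and 81 genes, followed by rodents with 83 and 72.

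**Figure D5:**
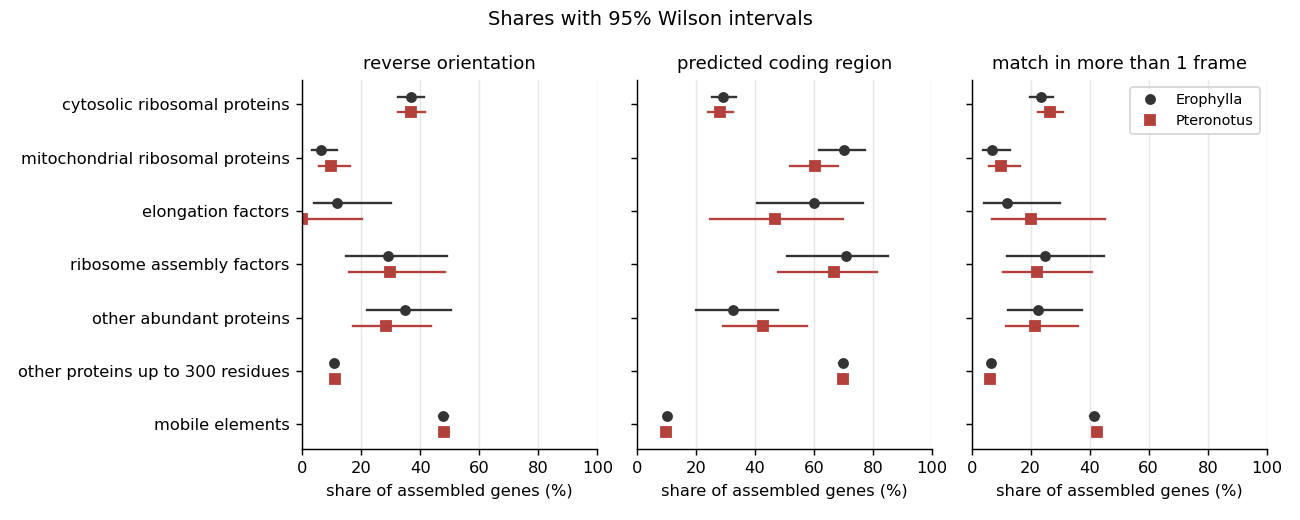
Share of assembled genes in reverse orientation, with a predicted coding region and with a match in more than 1 reading frame, for 7 lists of proteins, with 95% Wilson intervals as lines, circles for *Erophylla* and squares for *Pteronotus*. Cytosolic ribosomal proteins lie at 36.7% and 37.0% reverse, between other proteins of up to 300 residues at 10.9% and 11% and mobile elements at 47.9% and 48.2%.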

How the data were processed

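For each species the authors deposited a Trinotate report, with the SwissProt and NCBI nr matches and predicted coding regions of every assembled transcript, and a DIAMOND table of nr titles and organisms. Transcript identifiers carry the name Trinity, while the publication names the Tuxedo protocol and mapping to the *Miniopterus natalensis* genome; no assembly settings were found. The members and lists were chosen with earlier results of these data known. The assembled gene was described by its transcript with the lowest E-value. A coding region counted as that of the match when they overlapped by over 30 bases on the same strand. The limits of 95% identity and 100 residues and the sets without mobile elements (names of LINE-1, retroviral and transposase proteins) were chosen after seeing the data. The mitochondrial list took names of RM or RT with 2 digits. Named proteins included the 10 with the most genes, those with 1 gene in both species, and the 5 with the highest ratio in each direction among names with at least 5 genes. RS5, with 6 and 3 genes, tied with RS14 and RS3A at a ratio of 2 and was left out of these 5. RL17, RL31, RL34, the stalk proteins, RSSA, ubiquitin fusions, paralogues and standard names without a member were also named. Others were chosen after their values were seen. The count tables hold 48 columns under codes that match no label; these were not used, so levels per library and stage tests were not analysed here. Python 3.11.15, pandas 2.3.3, numpy 2.4.6, scipy 1.17.1 and matplotlib 3.10.9 were used, and the parser was tested on simulated reports.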

Additional observations from a re-analysis of the deposited data

How the results depend on the processing

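Values are given for *Erophylla* and then *Pteronotus*. With an E-value limit of 1e-5 there were 1218 and 1265 transcripts in 819 and 827 genes; a coding region was found in 22.2% and 20.3%, 90% of the protein was spanned by 12.5% and 9.79%, the median identity was 75% and 72.9%, at least 95% identity was reached by 21.5% and 17.5%, and 42.4% were reverse in *Pteronotus*. With 1e-50 there were 206 and 172 transcripts in 112 and 89 genes; 16.1% and 24.7% were reverse, 74.1% and 66.3% had a coding region, 33% and 25.8% spanned the protein, the median identity was 98.3% and 97.3%, 65.2% and 57.3% reached 95%, and under 95% identity 46.2% and 57.9% were reverse. Matches to any species gave 696 and 637 genes and, in *Pteronotus*, 1039 transcripts and 20.4% at 95% identity. Only 241 and 227 transcripts had a coding region, in 146 and 123 genes when any member transcript counts and not only that with the lowest E-value. Over every transcript 30.01% and 30.8% were reverse. A span of 80% was reached by 27.8% and 24.7%. Identity limits of 85%, 90% and 98%, chosen after seeing the data, were reached by 42.2% and 34.1%, by 37.0% and 29.5% and by 22.6% and 19.4%, and under 85% identity 58.3% were reverse in *Erophylla*. The cause was not tested beyond the construction of each limit. The other 54 of 102 alternatives, among them those without RL17 or with 1 gene per component, also chosen after seeing the data, stayed within the interval or within 1.5 times the number. No paired analysis was possible because the count columns could not be matched to samples. For the same reason the other settings of the stage test (DESeq2 size factors, no filter, replicate block, leaving out replicates, a false discovery rate of 0.05, counts per assembled gene) were not run. Those of the levels (TMM factors, an E-value of 1e-50, the top gene of each name) were not run because the count columns were not used. With 1 assembly per species, depth and assembly quality may limit which transcripts appear, and this was not tested.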

Other observations

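The mitochondrial ribosome, whose proteins are encoded in the nucleus and imported, was described by 127 assembled genes under 76 names in *Erophylla* and 131 under 74 in *Pteronotus*. The median was 1 and 1.5 genes per name, and RT31 with 5 and RT23 with 7 had the most. At least 95% identity was reached by 3 of the 127 and 8 of the 131, and the median identity was 85.5% and 84.5%.

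Other abundant proteins known for processed copies lay closer to the cytosolic ribosomal proteins. PPIA, the prolyl isomerase cyclophilin A, had 9 assembled genes in *Erophylla* and 14 in *Pteronotus*, of which 5 and 6 were reverse and 0 were forward with at least 95% identity. TCTP had 10 and 8 genes, of which 2 and 2 were reverse. Over this list 14 of 40 genes were reverse in *Erophylla* (35.0%, 22.1% to 50.5%) and 12 of 42 in *Pteronotus* (28.6%, 17.2% to 43.6%), and 32.5% and 42.9% had a coding region. These shares cover only best matches to the 5 species. G3P, the glycolytic enzyme GAPDH, had 27 and 37 genes with entries of any species instead of 2 and 3, PPIA 20 and 23, and ROA1 10 and 18 instead of 6 and 2. H33, ACTB and TBB5 had no gene in either among the 5 species, but 8, 5 and 1 in *Erophylla* and 7, 4 and 4 in *Pteronotus* with any.

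Of the elongation factors, EF1A1, which brings aminoacyl-tRNA to the ribosome, had 10 assembled genes in *Erophylla* and 5 in *Pteronotus*, but 12 and 14 with entries of any species. Over the 6 names of this list 3 of 25 genes were reverse in *Erophylla* and 0 of 15 in *Pteronotus*, which allows a share of up to 20.4%. The ribosome assembly factors had 24 and 27 genes, and 29.2% (14.9% to 49.2%) and 29.6% (15.9% to 48.5%) of them were reverse. NPM, nucleophosmin, had 5 and 7 genes, and BOP1 4 and 7, of which 3 and 4 were reverse.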
